A study of Mus musculus with 2 samples.

Results

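The smooth muscle contractile genes of the myoepithelium were followed at the level of open chromatin in mammary organoids. They are 9 of the 21938 protein-coding genes of the annotation: Acta2, Myh11, Myl9, Mylk, Cald1, Cnn1, Tagln, Lmod1 and Oxtr. Their members on the genome were all peaks of either library that overlapped the body of such a gene or lay within 20 kb of its transcription start sites (TSS), which gave 188 of 275294 merged regions. Of these, 132 had a peak of both libraries (shared regions, of 174940 in all), namely 18 at promoters, 77 in gene bodies and 37 in the flanks. A promoter region lay within 1 kb of any annotated TSS of the gene.

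Myoepithelial cells form the outer, basal layer of the mammary epithelium and contract to expel milk when oxytocin reaches its receptor. As in smooth muscle, calcium and calmodulin activate a kinase that phosphorylates the regulatory light chain of myosin II, and the motor then pulls on smooth muscle actin filaments whose access is tuned by caldesmon, calponin and transgelin. Most genes of this apparatus are classical targets of serum response factor (SRF) and its myocardin-family coactivators, which act through the CArG box.

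The chromatin of primary mammary organoids from C57BL/6J mice was profiled by single-cell ATAC-seq, in which a transposase cuts accessible DNA and each cut is counted by nucleus. Both groups carried the same alleles, an inducible hairpin against the GATA-type repressor gene Trps1 (shTRPS1.34 ki/+) and the transactivator transgene CAG-rtTA3 tg/+, whose CAG promoter is active in nearly all cell types. One group received doxycycline at 0.1 µg/ml, which switches on the hairpin (DOX), the other its solvent ethanol (EtOH), in both cases for 7 days. The labels were followed for the genotype, although 1 legend of the study names wild-type mice. The study describes the organoids of both groups as matched. Cells of several mice were mixed before nuclei were isolated and each group had 1 library, so that no difference could be tested against replicates, and doxycycline itself and the hairpin cannot be told apart. Intervals are given at 95% and reflect counting error alone.

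The DOX library held 3071 nuclei with a median of 75296 counts, and the EtOH library 3104 nuclei with a median of 66789.5. Both libraries shared 23 barcodes. In the joint clustering, immune-like nuclei made up 41.8% of the DOX and 9.09% of the EtOH library, and the summed promoters of the 6 immune markers stood at 103 CPM (counts scaled to the total in shared regions) against 33.3. Those of the 8 basal markers with a promoter region stood at 96.1 against 109 CPM, with Krt14 at 20.7 and 19.2, Trp63 at 0.631 and 1.61, and none at 0. The 5 pericyte and vascular smooth muscle markers with a promoter region, whose cells share the contractile genes, summed to 22.7 and 30.6 CPM. The Trps1 promoter had 40.4 CPM in DOX and 25.3 in EtOH. A hairpin acts on the transcript, which was not measured, so this value does not check the labels. In sums over nuclei, fewer nuclei of a type and less open chromatin per nucleus cannot be told apart. The main values are therefore given for all nuclei and for the 1788 DOX and 2822 EtOH nuclei outside the immune-like clusters, and the part of the nuclear mixture in any difference between the libraries was not tested beyond this.

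The sequences at which the CArG box, the binding site of SRF, occurred near these genes are shown first, because the box is what the members are known to share and the selection of the regions did not use it. A CArG box was spelled as CC, 6 bases of A or T and GG, searched on both strands. In the windows from 250 bases before to 50 after the RefSeq start, 1 of 8 entries for these genes held it, that of Myl9, against 1.63% of all 32851 entries. RefSeq entries of GRCm38.p6 were found for 7 of the 9 genes, with 2 for Cald1. Tagln and Myh11 had no entry. When 1 C or G was allowed among the 6 core bases, a choice made after the sequences were seen, the entries of Acta2 and Myl9 held a box, against 9.98% of all entries. The boxes are given below with 10 bases on either side, in the direction of the gene, and capitals mark the box.
Myl9, chr2:156775293-156775322, plus strand, with the exact box: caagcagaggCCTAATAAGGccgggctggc
Myl9, chr2:156775355-156775384, plus strand, with 1 other base in the core: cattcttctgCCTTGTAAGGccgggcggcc
Acta2, chr19:34255438-34255467, minus strand, with 1 other base in the core: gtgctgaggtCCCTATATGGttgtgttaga
Acta2, chr19:34255388-34255417, minus strand, with 1 other base in the core: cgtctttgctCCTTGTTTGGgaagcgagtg

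Both pairs of CArG boxes lay inside the region that covers the principal TSS of the gene. The TEAD site GGAATG (or CATTCC on the other strand) was found in 4 of the 8 entries, those of Acta2, Cald1, Lmod1 and Mylk, against 14.7% of all. A GATA site (AGATAA or TGATAA, either strand) was found in 0 of the 8, against 18.6% of all. Among the central 300 bases of 130 shared regions of the 9 genes, with the promoter regions of Tagln and Myh11 left out, 9 (6.92%) held an exact CArG box, against 1.58% of all shared regions. A TEAD site was found in 24.6% of the 130 regions against 20.2% of all, and a GATA site in 26.2% against 21.1%. Of the 22 regions lower in DOX by 2-fold, 9 held a TEAD site, of the 11 higher ones 1, and of the other 97 regions 22. The same counts for a GATA site were 5, 4 and 25. The shares over all regions of the series with the same call are not given, so these counts show no link between a site and a direction. Besides the Myl9 promoter, the exact CArG boxes lay in introns or flanks. The 3 of Cald1, the gene with the most, and that near Tagln, which lies in a region lower in DOX, are shown next, again with capitals for the box.
Cald1, chr6:34608756-34608785, plus strand: tcactccctgCCATATAAGGaagcagaact
Cald1, chr6:34642376-34642405, plus strand: attttcttagCCATATTAGGttatatggac
Cald1, chr6:34722823-34722852, plus strand: ctgcccgtgtCCTAATAAGGgaatgcacac
Tagln flank, chr9:45920030-45920059, minus strand: agcaacatgcCCTAAAATGGtcaaagaaaa

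The TEAD sites of Acta2 and Mylk are given as well, with capitals for the site, because Acta2 is a widely used myoepithelial marker and Mylk had the only promoter region that was lower by 2-fold.
Acta2, chr19:34255502-34255531, minus strand: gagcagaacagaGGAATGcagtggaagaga
Mylk, chr16:34784780-34784809, plus strand: tgcagttcagaaCATTCCctggtacgtgca

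At the promoters, the contractile genes were on balance somewhat less open in the DOX library as a whole, and not so once the immune-like nuclei were set aside. Over all nuclei the 18 promoter regions of the 9 genes summed to 145 CPM in DOX and 167 in EtOH, a log2 ratio of -0.21 (-0.24 to -0.18). Outside the immune-like clusters they summed to 196 and 175 CPM, a log2 ratio of 0.16 (0.13 to 0.20). The summed promoters of the 8 basal markers moved in the same directions, from the lower sum in DOX given above to 140 against 115 CPM outside the immune-like clusters. That was a log2 ratio of 0.28 (0.24 to 0.32), but their median ratio there was 0.049. Of the 8, 4 had intervals above 0, with Krt17 at 0.76 and Krt14 at 0.69. Another 2 had intervals below 0, Krt15 at -0.65 and Trp63 at -0.95. The part of these markers in the contractile sum was not tested. Both scopes thus gave opposite signs for the contractile sum, with intervals that exclude 0. Outside the immune-like clusters, 4 of the 9 contractile genes had intervals above 0 and 2 below. Differences in CPM were largest there for Oxtr (42.2 in DOX, 29.7 in EtOH) and Cald1 (64.8 and 53.1). The sign of the sum thus does not hold for each gene. No gene of the 9 reached a 2-fold difference in its summed promoter in either direction, where 3.43% of 16361 protein-coding genes with at least 100 counts were higher and 1.67% lower, and outside the immune-like clusters 0.781% and 0.83%. The median log2 ratio of the 9 genes was -0.39, beside 0.094 over all those genes. Without the immune-like nuclei it was -0.07, beside 0.018. Setting the median log2 ratio of all shared regions, which was -0.13, to 0 would raise every ratio over all nuclei by that amount, and would turn the sign of Acta2 but of no other contractile promoter.

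**Figure D1:**
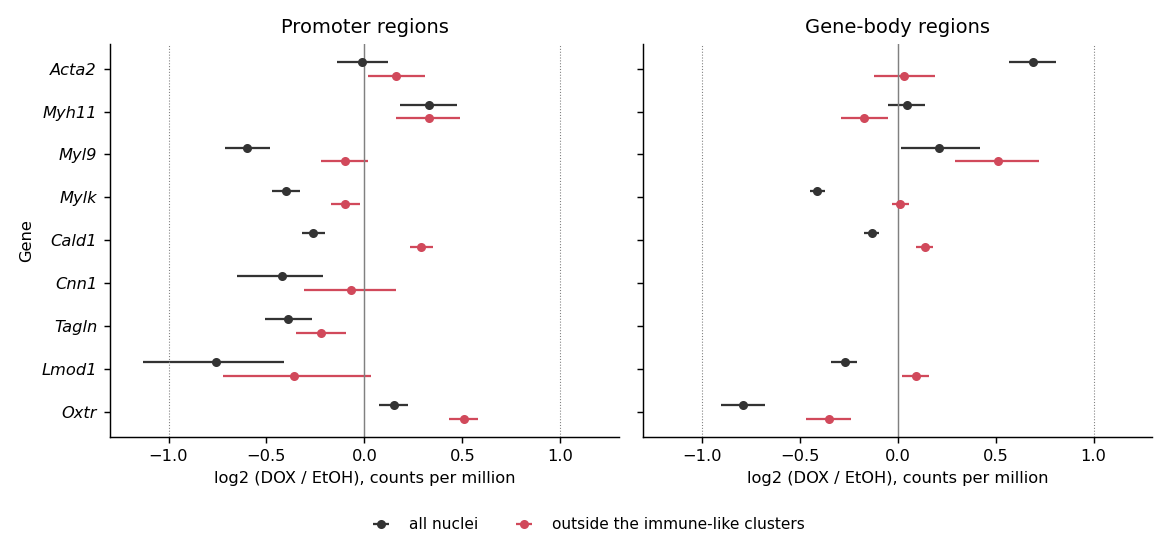
Log2 ratio of DOX over EtOH (x axis) of the summed promoter regions (left) and gene-body regions (right) of each gene (y axis). Points are single ratios of 2 libraries, bars are 95% counting intervals, black marks all nuclei and red the nuclei outside the immune-like clusters, and dotted lines mark 2-fold. All promoter points lie inside the dotted lines, and most red points lie to the right of the black ones. The exceptions are Myh11 at promoters, at 0.33 in both, and Acta2 and Myh11 in gene bodies.

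Among the genes of the filaments themselves, the actin and the myosin heavy chain genes did not follow the same course. Acta2 encodes smooth muscle alpha-actin. Its summed promoter had 9.52 CPM in DOX and 9.61 in EtOH, a log2 ratio of -0.013 (-0.14 to 0.12), and 0.16 (0.02 to 0.31) outside the immune-like clusters. Acta2 had 2 promoter regions. The one over the principal TSS (chr19:34255375-34256081, with the boxes shown above) had 1.82 and 2.09 CPM, and the one over the start of a shorter transcript (chr19:34254068-34255180) 7.7 and 7.52. Neither interval excluded 0 over all nuclei. The gene-body regions of Acta2, in contrast, summed to 15.4 CPM in DOX and 9.56 in EtOH, a log2 ratio of 0.69 (0.57 to 0.81), and 0.034 (-0.12 to 0.19) outside the immune-like clusters. A region over an exon at 5447 bases past a TSS (chr19:34248337-34249229) had 1350 counts in DOX and 340 in EtOH, a log2 ratio of 1.91 (1.66 to 2.16), and a flanking region at -14877 (chr19:34270002-34270933) had 2272 and 527, a ratio of 2.03 (1.83 to 2.22). Both were regions of the immune-like nuclei, with 15.4 and 25.9 CPM there against 0.627 and 0.899 in the other nuclei. Outside the immune-like clusters their log2 ratios were -0.28 (-0.91 to 0.33) and -0.028 (-0.52 to 0.49). Another region, at 20139 bases (chr19:34233635-34234547) and also within 1 kb of a TSS of Stambpl1, had 623 and 294 counts, a ratio of 1.00, and 0.62 outside the immune-like clusters.

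Myh11 encodes the smooth muscle myosin heavy chain. Its single shared promoter region (chr16:14291020-14291923) had 8.82 CPM in DOX and 7.03 in EtOH, a log2 ratio of 0.33 (0.18 to 0.47), which was the highest of the 9 over all nuclei and was 0.33 (0.16 to 0.49) outside the immune-like clusters as well. Unlike the other members, this region was about as open in every cluster, between 6.22 CPM in the basal-like and 9.44 in an immune-like one. Upstream of the gene 2 regions went in opposite directions. The region at -12455 (chr16:14303381-14304274) had 406 counts in DOX and 1437 in EtOH, a log2 ratio of -1.91 (-2.14 to -1.68) and of -1.40 outside the immune-like clusters. It was open mainly in clusters 5 and 4, at 22.2 and 14.8 CPM. The region at -16150 (chr16:14307072-14307973), which holds a CArG box, had 1600 counts in DOX and 303 in EtOH, a ratio of 2.32 (2.06 to 2.57). It had 18.8 CPM in the immune-like nuclei and 0.244 in the others, where its ratio was -0.98 (-2.16 to 0.13). The shared gene-body regions of Myh11 had 16.8 CPM in DOX and 16.3 in EtOH, a log2 ratio of 0.045 (-0.052 to 0.14), and 14.3 and 16.1 outside the immune-like clusters, a ratio of -0.17 (-0.29 to -0.05). In the same gene body 9 further regions had a peak of DOX alone, and 69.3% of their 1916 counts came from immune-like nuclei. Another 2 had a peak of EtOH alone, with 3.94% of 508 counts from such nuclei.

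The light chain and its kinase were lower in DOX at several of their start sites. Myl9, the regulatory light chain, had 10 CPM in DOX and 15.2 in EtOH over its promoter regions, a log2 ratio of -0.60 (-0.71 to -0.48), and of -0.099 (-0.22 to 0.019) outside the immune-like clusters. Its start sites belonged to different nuclei. The region over the principal TSS (chr2:156774858-156775819), where the exact CArG box lies, had 3.08 and 4.47 CPM in DOX and EtOH, and across clusters it reached 20.2 CPM (17.4 to 23.3) in the basal-like cluster against 5.01 or less in the other clusters compared. The region within 1 kb of a downstream start (chr2:156778761-156779637) had 6.94 and 10.7 CPM, and was at 17.3 and 16.8 CPM in clusters 5 and 4 against 4.22 (3.00 to 5.76) in the basal-like one. The gene-body regions of Myl9 had 4.21 and 3.64 CPM, a ratio of 0.21 (0.015 to 0.42), and of 0.51 (0.29 to 0.72) outside the immune-like clusters. A flanking region at 9372 (chr2:156787442-156788336) had 619 and 272 counts, a log2 ratio of 1.10, and -0.042 outside the immune-like clusters.

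Mylk, the myosin light chain kinase that calmodulin activates, spans 257 kb and has annotated starts along its length. Its 5 shared promoter regions summed to 29.1 CPM in DOX and 38.3 in EtOH, a log2 ratio of -0.40 (-0.47 to -0.33), and of -0.098 (-0.17 to -0.024) outside the immune-like clusters. The region over the principal TSS (chr16:34784427-34785311) had 509 counts in DOX and 1115 in EtOH, a ratio of -1.21 (-1.44 to -1.0). It was the only contractile promoter region at least 2-fold apart over all nuclei, and was at -0.79 (-1.02 to -0.56) outside the immune-like clusters. The region held 14.1 and 8.97 CPM in clusters 5 and 4, and 5.41 in the basal-like cluster, where its ratio was -0.22 (-1.06 to 0.70). At the upstream start (chr16:34744761-34745656) 2753 and 3849 counts gave -0.57 (-0.67 to -0.47), and -0.077 (-0.18 to 0.027) outside the immune-like clusters. Regions within 1 kb of starts toward the 3′ end did not share this. The region chr16:34992781-34993696 had 552 and 314 counts, a ratio of 0.73 (0.44 to 1.02), and 1.32 (1.04 to 1.62) outside the immune-like clusters, while chr16:34995800-34996723 had 2073 and 1990, a ratio of -0.023 (-0.15 to 0.10), and -0.24 (-0.40 to -0.084) outside the immune-like clusters.

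The gene body of Mylk also differed in direction along its length. Its regions summed to 85 CPM in DOX and 113 in EtOH, a log2 ratio of -0.41 (-0.45 to -0.37), and to 121 and 120 outside the immune-like clusters. Of the gene-body regions at least 2-fold lower in DOX, 9 were in Mylk, all of them between positions 34781895 and 34881022 of chromosome 16, in the 5′ part of the gene. The region with the most counts among them (chr16:34781895-34782662) had 1670 counts in DOX and 3284 in EtOH, a log2 ratio of -1.06, and the lowest ratio, -1.85 (-2.20 to -1.51), was that of chr16:34860464-34861357 with 188 and 641 counts. Of these 9, 5 were at least 2-fold lower outside the immune-like clusters too, and 4 of those 5 were most open in cluster 5, at between 4.91 and 9.86 CPM. In the 3′ part, the intronic region chr16:34925949-34926837 had 709 and 287 counts, a ratio of 1.22 (0.93 to 1.51) and of 1.77 (1.47 to 2.06) outside the immune-like clusters. It was most open in cluster 2, at 6.11 CPM. Its central 150 bases hold a GATA site, marked by capitals, and are shown because it was 1 of only 2 contractile regions higher by 2-fold in both scopes.
Mylk intron, chr16:34926318-34926467, plus strand: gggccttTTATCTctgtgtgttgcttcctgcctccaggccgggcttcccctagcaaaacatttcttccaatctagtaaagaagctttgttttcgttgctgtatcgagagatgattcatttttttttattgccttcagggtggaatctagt

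Of the thin-filament regulators, Cald1 alone had promoter regions at several starts, and these contrasted. Cald1 encodes caldesmon, which binds actin and calmodulin and restrains the motor. Its promoter regions summed to 41.6 CPM in DOX and 49.8 in EtOH, a log2 ratio of -0.26 (-0.32 to -0.20) that was 0.29 (0.23 to 0.35) outside the immune-like clusters. The upstream region over the principal TSS (chr6:34598096-34599020) had 21.7 and 33.2 CPM, a ratio of -0.61 (-0.69 to -0.54), and -0.03 (-0.11 to 0.048) outside the immune-like clusters. At the internal start, where shorter transcripts begin, the regions chr6:34708450-34708998 and chr6:34709075-34709826 had 6.93 and 12.9 CPM in DOX against 4.65 and 11.9 in EtOH. Their ratios were 0.57 (0.40 to 0.74) and 0.12 (0.0051 to 0.23), and 1.12 (0.95 to 1.29) and 0.60 (0.49 to 0.72) outside the immune-like clusters. The intervals of the upstream and internal regions thus did not overlap in either scope. Within cluster 4, which held 120 DOX and 515 EtOH nuclei, the internal regions had 1.33 (0.92 to 1.73) and 0.75 (0.32 to 1.17), and the upstream one -0.06 (-0.38 to 0.25). In the basal-like cluster the 3 ratios were 0.95 (-0.11 to 1.80), 0.17 (-0.32 to 0.65) and -0.23 (-0.56 to 0.068). The gene-body regions of Cald1 summed to 105 and 116 CPM, and to 133 and 121 outside the immune-like clusters. Among its introns, chr6:34674645-34675496 had 1092 and 161 counts, a ratio of 2.68 (2.35 to 3.05), and was a region of the immune-like nuclei, at 12.3 CPM against 0.193 in the others, where the ratio was 1.15 (-0.021 to 2.30). The region chr6:34725733-34726650, which lies within 1 kb of a TSS of Npn2, had 167 and 886 counts, a ratio of -2.49 (-2.83 to -2.14) and of -2.04 (-2.43 to -1.70) outside the immune-like clusters, and had its highest levels in clusters 4 and 5, at 9.22 and 8.61 CPM. A flanking region past the gene (chr6:34782212-34783209) had 577 and 128 counts, a ratio of 2.09, and 0.65 (-0.23 to 1.53) outside the immune-like clusters.

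Cnn1, calponin, and Tagln, transgelin, are compact genes with 1 shared promoter region each and no other shared region in the gene body. At Cnn1 (chr9:22098752-22099664) 605 counts in DOX and 766 in EtOH gave 2.85 and 3.82 CPM, a log2 ratio of -0.42 (-0.65 to -0.21), and -0.07 (-0.31 to 0.16) outside the immune-like clusters. The Tagln region (chr9:45936637-45937556) lies upstream of the gene, and no region covered the TSS itself. It had 10.2 and 13.4 CPM, a ratio of -0.39 (-0.51 to -0.27), and -0.22 (-0.35 to -0.092) outside the immune-like clusters. Both genes thus had lower promoter levels in DOX over all nuclei, and only that of Tagln kept an interval below 0 outside the immune-like clusters. The flanks of Cnn1 held regions of the immune-like nuclei at 15249 (chr9:22119247-22120141, 2354 and 472 counts, a ratio of 2.24) and at 18005 (chr9:22121902-22122998, 1378 and 416 counts, a ratio of 1.65). At the latter the other nuclei went the other way, with -1.39 (-1.98 to -0.83). At -6231 the region chr9:22092516-22093454, at a TSS of Gm6581, had 198 and 393 counts, a ratio of -1.07. Downstream of Tagln, 3 regions at TSS of the neighbouring gene Pcsk7 were lower in DOX. The clearest, chr9:45919592-45920546, holds a CArG box and had 642 and 2167 counts, a ratio of -1.84 (-2.02 to -1.66) and of -1.36 outside the immune-like clusters, with 17.8 CPM in cluster 1 and 12.3 in the basal-like cluster. The others, chr9:45926159-45927059 and chr9:45917274-45918195, had ratios of -1.72 and -1.03.

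Lmod1 encodes leiomodin, which nucleates actin filaments in smooth muscle. Its promoter (chr1:135324331-135325201) was the least open of the 9 in counts, with 212 in DOX and 339 in EtOH, a log2 ratio of -0.76 (-1.13 to -0.41) and of -0.36 (-0.72 to 0.034) outside the immune-like clusters. At this depth a difference was not detectable in the second scope. Just upstream, at -1478, the region chr1:135322877-135323781 had 173 and 790 counts, a ratio of -2.27 (-2.64 to -1.95) and of -1.88 outside the immune-like clusters, and was open mainly in cluster 1, at 6.76 CPM. The gene-body regions of Lmod1 summed to 34.4 and 41.6 CPM, a ratio of -0.27 (-0.34 to -0.21), and to 46.2 and 43.3 outside the immune-like clusters. Among the introns, chr1:135330157-135331119, chr1:135347463-135348394 and chr1:135351796-135352677 were lower, with ratios of -1.44, -1.45 and -1.16. The intron region chr1:135358186-135359368 was higher, with 2012 and 855 counts, a ratio of 1.15 (0.99 to 1.32) and of 1.74 (1.57 to 1.91) outside the immune-like clusters. Its levels were 20.2 CPM in the basal-like cluster and 17.5 in cluster 2, against 4.34 in cluster 1 and 3 or less in the rest. Within the basal-like cluster, where 112 DOX and 261 EtOH counts fell in it, its ratio had the opposite sign, -0.80 (-1.27 to -0.33). Its central 150 bases are shown because of these opposite signs. They hold neither a CArG box nor a TEAD or GATA site.
Lmod1 intron, chr1:135358702-135358851, plus strand: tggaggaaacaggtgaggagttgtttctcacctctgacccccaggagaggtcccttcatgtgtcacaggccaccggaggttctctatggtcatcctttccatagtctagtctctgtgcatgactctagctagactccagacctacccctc

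Oxtr encodes the oxytocin receptor, through which the signal for contraction enters the cell. Its promoter regions summed to 31.5 CPM in DOX and 28.5 in EtOH, a log2 ratio of 0.15 (0.074 to 0.22), which was 0.51 (0.43 to 0.58) outside the immune-like clusters, the highest of the 9 there. The region over the principal TSS (chr6:112488988-112489965) had 1575 and 1532 counts, a ratio of -0.042 (-0.19 to 0.10), and the region at -1043 (chr6:112490529-112491444) 5127 and 4191, a ratio of 0.21 (0.13 to 0.29). The body of the gene went the other way. Its 3 intronic regions summed to 9.82 CPM in DOX and 17 in EtOH, a ratio of -0.79 (-0.90 to -0.68), and of -0.35 (-0.47 to -0.24) outside the immune-like clusters. One of them (chr6:112482696-112483563, 725 and 1666 counts) had a ratio of -1.28 (-1.47 to -1.11), and in the basal-like cluster of -0.99 (-1.70 to -0.32). In the upstream flank, chr6:112497238-112498125 had 814 and 1669 counts, a ratio of -1.12, and -0.56 (-0.74 to -0.39) outside the immune-like clusters.

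Per kb of region, the promoters differed more between the genes than between the libraries. Cald1 and Oxtr were the most open, with 18.7 and 16.7 CPM per kb in DOX and 22.4 and 15.1 in EtOH, followed by Tagln with 11.1 and 14.6. Lmod1 with 1.15 and 1.94 and Cnn1 with 3.12 and 4.18 were the least open. The other 4 lay between 5.23 and 9.75 in DOX and between 5.28 and 8.38 in EtOH.

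Counted by region, the gene bodies and flanks, with 77 and 37 of the 132 shared regions, held most of the differences between the libraries. Over all protein-coding genes such regions also passed 2-fold more often than promoter regions, as the shares below show. The gene-body regions of the 9 genes summed to 271 CPM in DOX and 317 in EtOH and the flanking regions to 292 and 271, while outside the immune-like clusters these sums were 343 and 330, and 241 and 264. Over all nuclei the median log2 ratio of their gene-body regions was -0.18, the same as over all protein-coding genes (-0.18). Outside the immune-like clusters it was 0.019, beside -0.11 over all those genes. Over all nuclei 0 of the 18 promoter regions were at least 2-fold higher and 1 lower, beside 7.35% and 4.89% of the promoter regions of all protein-coding genes. In gene bodies, 4 of 77 were higher and 14 lower, beside 14.4% and 14.6%, and in the flanks 7 of 37 were higher and 7 lower, beside 14.8% and 11.6%. With the median of all shared regions set to 0 the split was 6 to 12 in gene bodies and 7 to 4 in the flanks, but the shares of all regions with this shift are not given. Without the shift, the count of lower gene-body regions exceeded the background share slightly and the count of higher ones fell below it. Outside the immune-like clusters, 2 of 18 promoter regions were higher and 0 lower (1.67% and 3.35% of all), 6 of 76 gene-body regions were higher and 7 lower (5.06% and 9.67%), and 0 of 35 flanking regions were higher and 6 lower (4.96% and 8.11%), with regions under 100 counts in that scope left out. The 2 higher promoter regions were the internal starts of Cald1 and Mylk named above.

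Most regions that were higher in DOX were more open in immune-like nuclei, and all that were lower were less open there. Immune-like nuclei made up 41.8% of the DOX and 9.09% of the EtOH library, so sums over all nuclei favour such a split. The counts below are therefore no separate result about these genes, and the same counts over all regions of the series are not given. Of the 11 higher regions, 9 were at least 2-fold more open in immune-like than in other nuclei, with all 7 flanking ones among them, and 2 were at least 2-fold higher outside the immune-like clusters too. The exceptions were the introns of Mylk and Lmod1 whose sequences are shown. All 22 lower regions were at least 2-fold less open in immune-like nuclei, as were 80 of all 132, and 11 of the 22 were at least 2-fold lower outside the immune-like clusters. They were most open in cluster 5 (9 regions), cluster 1 (7), the basal-like cluster (5) and cluster 4 (1). Just inside the 2-fold limit stood the Pcsk7 region near Tagln at -1.03 and the Stambpl1 region near Acta2 at 1.00. Just outside it stood a flanking region of Cnn1 (chr9:22089616-22090598) at -0.95 and an intronic Mylk region (chr16:34941681-34942606) at 0.96, which was most open in the basal-like cluster, at 17.2 CPM. Regions with a peak of 1 library numbered 24 for DOX, with 74% of their counts from immune-like nuclei, and 32 for EtOH, with 2.35%. The immune-like clusters 3 and 6 held 29% and 10.1% of all counts in shared regions in DOX, and 5.24% and 1.81% in EtOH. Regions of 1 library were common in the whole series, where 174940 of 275294 merged regions were shared, beside 132 of 188 here. Counts of the other library in these regions were not used here, and no ratio was formed.

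**Figure D2:**
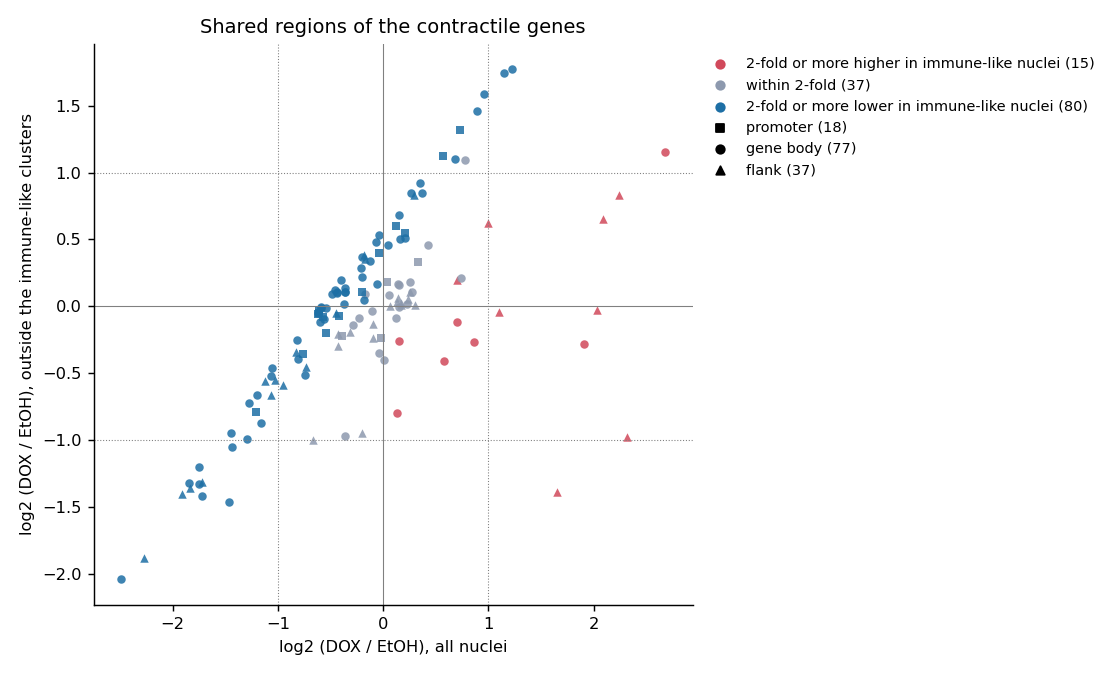
Each point is 1 of the 132 shared regions of the contractile genes, with its log2 ratio of DOX over EtOH over all nuclei (x axis) and outside the immune-like clusters (y axis). Colours give the level in immune-like nuclei relative to the other nuclei, shapes the class of region, and dotted lines mark 2-fold. The 15 red regions lie to the right of 0 with most y values within 2-fold, and the 80 blue regions lie along a line above the diagonal.

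The clusters were formed on shared regions without those of the 9 genes, so that the counts of these genes did not enter the grouping. Other regions of the same nuclei did, so the levels of these genes are not independent of it. Clusters were named from fixed marker lists where the median log2 difference from all other nuclei was at least 1. Cluster 7 (108 DOX and 146 EtOH nuclei) was called basal-like, since all 9 basal markers were above 0 there with Krt5, Krt17 and Krt14 at 2.85, 2.38 and 1.77. The fibroblast markers had a median of 1.12 in it, with Dcn and Col1a2 at 2.86 and 2.10, and the pericyte and vascular smooth muscle markers one of 0.29, with Rgs5 at 1.13, so that other contractile or stromal nuclei in this cluster were not told apart from basal ones. None of its 10 leading genes was a marker of any list. Clusters 3 and 6 were called immune-like, with medians of 2.54 and 1.98 of the immune markers, of which Cd3e alone was below 0, at -1.13 and -1.04. Of the endothelial markers, Cdh5 stood at 2.87 and 2.22 and Kdr at 1.73 and 1.59, while Emcn and Tek were below 0 in both clusters. Endothelial nuclei in these clusters were thus not told apart from immune ones. The other clusters stayed unnamed. Cluster 8 (43 and 22 nuclei of low depth) was left out of the comparisons of levels. Of the unnamed, cluster 1 (57 and 1619 nuclei) and cluster 2 (1368 and 18) were nearly of 1 library each, so that what sets these 2 clusters apart and what sets the libraries apart cannot be told apart.

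Seen across clusters, the promoters of the contractile genes taken as a sum were less open in the immune-like clusters than in the others. Their promoters summed to 215 CPM (205 to 224) in the basal-like cluster, 201 (197 to 205) in cluster 2, 184 (181 to 188) in cluster 1, 165 (160 to 171) in cluster 4, 149 (144 to 155) in cluster 5 and 59.8 in cluster 6, the lowest. Of the 9 genes, 4 had their highest promoter level in the basal-like cluster, namely Acta2, Myl9, Lmod1 and Cnn1. Acta2 had 24.8 CPM (21.7 to 28.2) there and 12.6 (11.1 to 14.2) in cluster 5, the next. Lmod1 had 5.46 (4.06 to 7.19) there and 2.08 (1.71 to 2.51) in cluster 1. For these 2 genes the intervals of the highest and the next cluster did not overlap, whereas those of Myl9 (24.4 and 19.6) and Cnn1 (5.68 and 4.93) did. Mylk was highest in clusters 5 and 4 (46.6 and 45.3), Cald1 in clusters 2 and 1 (69 and 67.3), Oxtr in cluster 2 and the basal-like cluster (45.4 and 39.7), and Tagln in clusters 1 and 5 (14.3 and 13.7), and in each of these pairs the intervals overlapped. Of the 9 genes, 8 were lowest in an immune-like cluster. The exception was Myh11, which was lowest in the basal-like cluster at 6.22 CPM. In gene bodies the basal-like cluster stood further apart, at 458 CPM (444 to 472) against 349 (344 to 354) in cluster 1, with Mylk, Cald1, Oxtr and Lmod1 highest there. Acta2 and Myh11, in contrast, had their highest gene-body levels in the immune-like cluster 3, at 27.3 and 21.5 CPM against 10.9 and 13.9 in the basal-like cluster, and Myl9 in cluster 2, at 6.07.

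**Figure D3:**
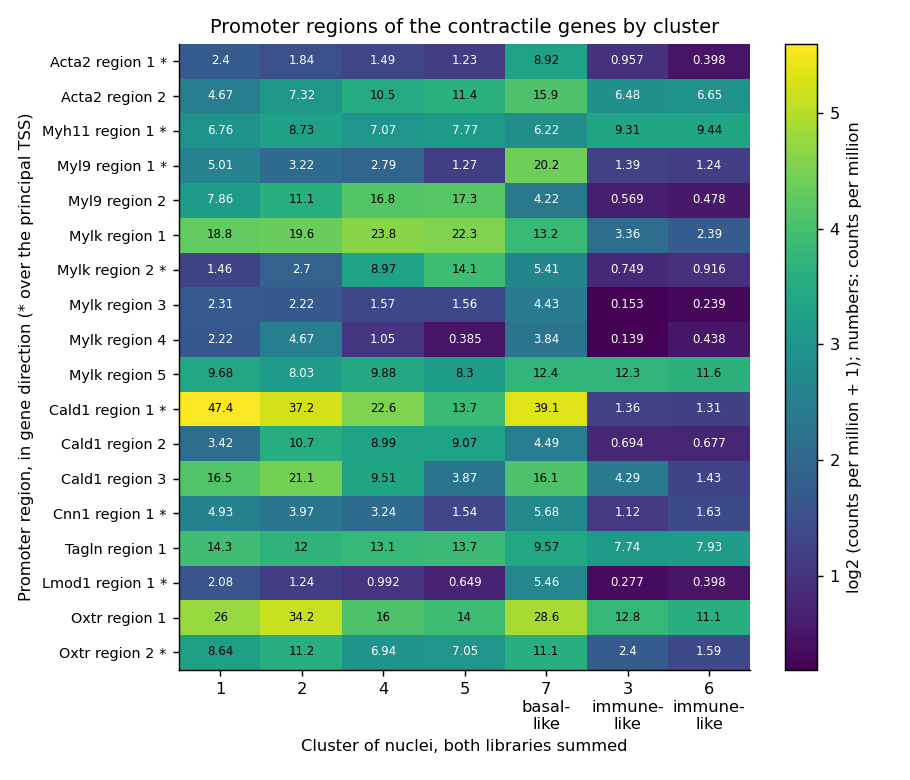
Levels of the 18 shared promoter regions (rows, numbered along each gene in its direction, stars mark the region over the principal TSS) in 7 clusters of nuclei (columns, both libraries summed). Numbers are CPM and colours are log2(CPM + 1). Region 1 of Acta2, of Myl9 and of Lmod1 is brightest in the basal-like column, region 2 of Myl9 and of Mylk in columns 4 and 5, and Myh11 is nearly even.

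Within the clusters that could be compared, the libraries differed little at these promoters. Cluster 2, which supplied 65.9% of the promoter counts in DOX, could not be compared. In the 6 clusters with at least 50 nuclei of both libraries, the sum of the 9 promoters was 189 CPM in DOX and 184 in EtOH in cluster 1, 178 and 162 in cluster 4, 145 and 150 in cluster 5, 212 and 216 in the basal-like cluster, 66.3 and 64.7 in cluster 3, and 59.7 and 61 in cluster 6. Only in cluster 4 did the interval of the log2 ratio exclude 0 (0.13, 0.018 to 0.24). There Acta2 had 17.2 CPM in DOX and 10.7 in EtOH, a ratio of 0.69 (0.31 to 1.07), and Cald1 53.4 and 38.1, a ratio of 0.49 (0.28 to 0.70), while Mylk had 38.2 and 47.1, a ratio of -0.30 (-0.54 to -0.066). In the basal-like cluster the ratio of the sum was -0.027 (-0.16 to 0.10), and the median over 13867 protein-coding genes in that cluster was 0.018. The promoter of Acta2 had 24.8 CPM in each library there, a ratio of -0.0023 (-0.40 to 0.38). None of the 9 promoters had an interval that excluded 0 in the basal-like cluster, so that differences were not detectable at this depth. Gene bodies were lower there in DOX, at 421 CPM against 485, a ratio of -0.21 (-0.30 to -0.12). With the median of all shared regions set to 0 that ratio was -0.08 (-0.17 to 0.0083). That offset was taken over all nuclei, not within this cluster, so it does not show whether the difference there holds. Gene-body regions of all protein-coding genes had a median log2 ratio of -0.18 over all nuclei and -0.11 outside the immune-like clusters. Their median within the basal-like cluster is not given, so the difference there cannot be called particular to the contractile genes. The genes with intervals below 0 were Lmod1 with 40.7 and 65.9 CPM, a ratio of -0.69 (-0.97 to -0.42), Oxtr with 20.6 and 30.2, a ratio of -0.55 (-0.94 to -0.15), and Mylk with 166 and 184, a ratio of -0.15 (-0.30 to -0.007). Myl9, with 35 and 21 counts there, had a ratio of 1.16 (0.078 to 2.55). Gene bodies were also lower in DOX in cluster 1, at 311 against 350 CPM (-0.17, -0.30 to -0.046), and higher in cluster 3, at 170 against 142 (0.26, 0.15 to 0.37).

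**Figure D4:**
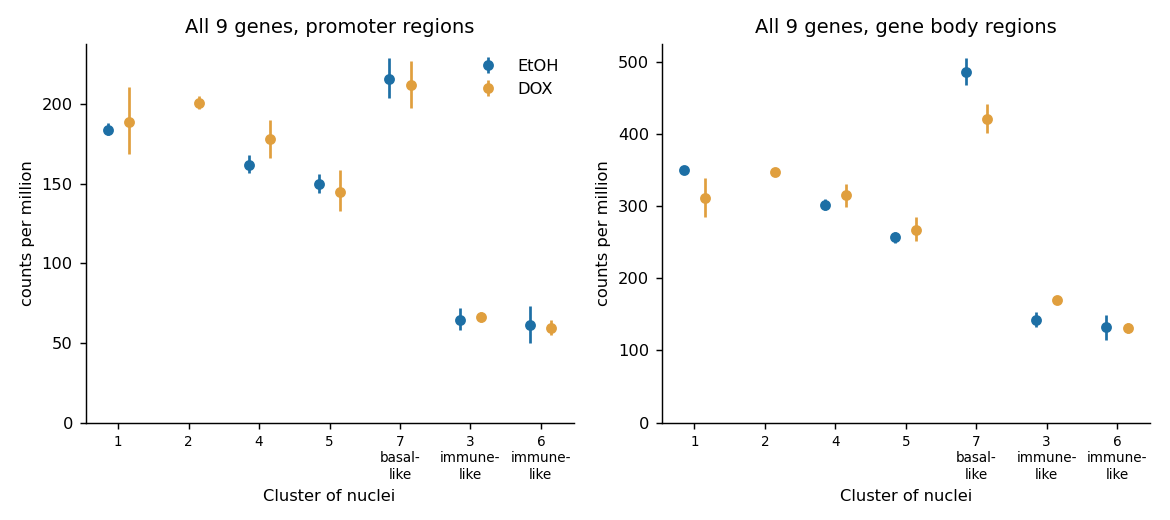
Summed promoter regions (left) and gene-body regions (right) of the 9 genes in CPM (y axis) by cluster of nuclei (x axis), for DOX (orange) and EtOH (blue). Bars are 95% Poisson intervals, and cluster 2 has no EtOH point because it held 18 EtOH nuclei. At the promoters the libraries lie close together in each cluster, in gene bodies they stand apart in the basal-like cluster, and the immune-like clusters lie far below the rest.

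The share of the promoter counts that came from a cluster is given beside its share of the counts in all shared regions. In DOX, cluster 2 supplied 65.9% of the 30733 promoter counts of the 9 genes and 47.4% of all counts, cluster 3 supplied 13.3% and 29%, and the basal-like cluster 5.47% and 3.72%. In EtOH, cluster 1 supplied 55.8% of the 33581 promoter counts and 50.6% of all counts, cluster 4 supplied 18.8% and 19.4%, cluster 5 supplied 15.4% and 17.2%, and the basal-like cluster 6.83% and 5.28%. When each of the 6 clusters with at least 50 nuclei of both libraries was given equal weight, the median promoter ratio of the 9 genes was -0.096. This alternative was chosen after the values were seen. It left out cluster 2, the source of 65.9% of the DOX promoter counts, and so does not describe the whole DOX library.

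Over the 13 groups of at least 50 nuclei formed by cluster and library, the members followed their common pattern to different degrees. Pearson's r of log2(CPM + 1) with the mean of the other 8 was 0.936 for Cald1, 0.924 for Myl9, 0.896 for Oxtr and 0.884 for Mylk, but 0.621 for Acta2 and -0.714 for Myh11. The genes outside the list whose promoters were most like the mean of the 9 were Erich3 (0.995), Sulf1 (0.989), Crct1 (0.989), Tenm4 (0.989) and Armh4 (0.988). The mean of the 9 lay between 2.51 and 2.64 in the immune-like groups and between 3.52 and 4.18 in the others, so r can largely reflect that step. These groups share libraries and depth, and the values describe them only.

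The regulators and other genes of the programme were followed in lists, at their promoters. Over all protein-coding genes, 3.43% of summed promoters were at least 2-fold higher and 1.67% lower, with a median log2 ratio of 0.094. Outside the immune-like clusters these were 0.781%, 0.83% and 0.018. Of 10 genes of the SRF and MRTF pathway, 1 had a promoter at least 2-fold higher in DOX and 0 lower. Their median log2 ratio of 0.10, and of 0.029 outside the immune-like clusters, lay near that of all genes. The gene was Elk4, an ETS-domain partner of SRF, with 36.2 CPM in DOX and 14.8 in EtOH, a ratio of 1.29 (1.20 to 1.38), and 33.6 and 14.5 outside the immune-like clusters, a ratio of 1.21 (1.12 to 1.31). Mrtfa, an actin-sensing coactivator of SRF, had 107 and 73.6 CPM, a ratio of 0.54 (0.49 to 0.58), and 0.0029 (-0.054 to 0.059) outside the immune-like clusters. Srf itself had 106 and 109 CPM. The lowest were Mrtfb, a further actin-sensing coactivator, with 33.2 and 37.3 CPM (-0.17, -0.23 to -0.10, and -0.0044, -0.079 to 0.071, outside the immune-like clusters), and Myocd, the smooth muscle and cardiac coactivator myocardin, with 4.33 and 5.45 CPM, a ratio of -0.33 (-0.52 to -0.15), which was 0.24 (0.059 to 0.43) outside the immune-like clusters.

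Of 22 other smooth muscle and SRF target genes, 21 had a promoter region, the exception being Kcnmb1, and 0 were 2-fold apart in either direction. Their median was -0.034 over all nuclei and 0.018 without the immune-like ones, beside 0.094 and 0.018 over all protein-coding genes. The highest were Actg2, smooth muscle gamma-actin, with 1.78 and 1.1 CPM (0.70, 0.36 to 1.06) and Filip1l with 21.5 and 15.3 CPM (0.49, 0.40 to 0.59). The lowest were Cnn3, a calponin of non-muscle cells, with 28.2 and 42.6 CPM (-0.60, -0.66 to -0.53), and Fhl1, a LIM-domain protein of muscle, with 1.97 and 3.19 CPM (-0.70, -0.95 to -0.43). Outside the immune-like clusters Actg2 had 0.14 (-0.35 to 0.58), Filip1l 0.16 (0.044 to 0.28), Cnn3 -0.099 (-0.17 to -0.029) and Fhl1 -0.49 (-0.78 to -0.21).

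Of 12 genes of myosin phosphatase, calmodulin and oxytocin signalling, 0 were 2-fold apart. The median was 0.19 over all nuclei and 0.082 without the immune-like ones, beside 0.094 and 0.018 over all protein-coding genes. The highest were Prkg1, the cGMP-dependent kinase that relaxes smooth muscle, with 9.44 and 7.16 CPM (0.40, 0.26 to 0.54), and Rgs2, which dampens Gq signalling, with 50.1 and 42.1 CPM (0.25, 0.19 to 0.31). The lowest were Itpr1, the calcium release channel that inositol trisphosphate opens, with 82.5 and 92.1 CPM (-0.16, -0.20 to -0.12), and Plcb1, a phospholipase downstream of Gq, with 16.3 and 21.3 CPM (-0.39, -0.48 to -0.30). Outside the immune-like clusters Plcb1 had 0.099 (0.0038 to 0.19), while the intervals of Prkg1 (0.17, -0.0044 to 0.34), Rgs2 (0.07, -0.0011 to 0.14) and Itpr1 (-0.031, -0.078 to 0.018) held 0.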

How the data were processed

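Counts of transposition events by peak and nucleus were deposited by the authors per library, beside the peaks and barcodes. Cell Ranger ATAC 2.0.0 is named in the file headers, an earlier version in the methods, and each library was called on its own. The submitters' processing notes give mm10, and 0 regions ended beyond a GRCm38 chromosome. Overlapping peaks of both libraries (minimum 1 bp) were merged, and genes and TSS were those of GENCODE M21, with the principal TSS that of the transcript tagged as principal. Counts were summed over nuclei and scaled to the same total in shared regions (CPM), without which values would follow depth. Ratios carry exact conditional binomial intervals and levels exact Poisson intervals. Only 13.8% (DOX) and 14.3% (EtOH) of the nonzero values were odd, because the cuts at either end of a DNA fragment often lie in 1 peak, and intervals were therefore taken from counts divided by 2. A call was a 2-fold ratio with at least 100 counts.

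Nuclei were clustered jointly (TF-IDF, singular value decomposition, components 2 to 30, 15 neighbours, Leiden at a resolution of 0.5, seed 1) on 174808 shared regions. All deposited nuclei were kept, and doublets were neither called nor removed. The rule for naming clusters was set after the marker values were seen. On simulated counts for 174940 regions, all of 200 planted 3-fold changes (100%) and 1% of 200 planted 1.5-fold changes were called 2-fold apart. The simulated counts held counting error alone, and changes were planted only in regions with at least 200 counts. It thus checks the arithmetic of the calls and not how far 2 libraries differ for other reasons. The genes, lists and regions were chosen with earlier results of these data known. Named are all 9 genes, from each pathway list the 2 highest and 2 lowest ratios with at least 200 counts, any list gene 2-fold apart, and the 5 genes most like the mean of the 9. Other regions are named because their levels across clusters or their starts called for it, after their values were seen. Python 3.11.15, numpy 2.4.6, scipy 1.17.1, scikit-learn 1.9.0, igraph 0.11.9, leidenalg 0.10.2, pysam 0.24.0 and matplotlib 3.10.9 were used.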

Additional observations from a re-analysis of the deposited data

How the results depend on the processing

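No paired analysis was possible because DOX and EtOH had 1 library each and no numbered replicates. For single genes, 145 comparisons of a promoter or gene-body ratio with an alternative gave 85 that stayed within the main interval, 53 that moved and 7 in which a ratio whose main interval lay off 0 changed sign. Outside the immune-like clusters the promoter ratio of Cald1 was 0.29, and the gene-body ratios of Mylk, Cald1 and Lmod1 were 0.014, 0.14 and 0.092. With equal weight to each cluster those of Cald1 were 0.10 at the promoter and 0.10 in the gene body, and with a promoter window of 500 bp that of Oxtr was -0.042. Smaller ratios changed sign too: the Acta2 promoter (-0.013) was 0.11 with the median of shared regions set to 0, 0.036 with each nucleus counted once, 0.16 outside the immune-like clusters and 0.18 with equal weight, and the Myh11 gene body (0.045) was -0.034 with equal totals over promoters, -0.17 outside the immune-like clusters and -0.094 with equal weight. Of 192 comparisons of counts, list medians and sums in the basal-like cluster with an alternative, 144 were the same and 48 moved.

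Contractile promoter regions at least 2-fold higher (0) numbered 2 outside the immune-like clusters and 1 at a fold of 1.5, and those lower (1) numbered 0 outside the immune-like clusters, 0 with each nucleus counted once, 0 with equal weight and 5 at a fold of 1.5. Gene-body regions higher (4) numbered 11 at a fold of 1.5 and 1 with equal weight, and those lower (14) numbered 7 outside the immune-like clusters and 2 with equal weight. Flanking regions higher (7) numbered 0 outside the immune-like clusters, 0 with equal weight and 1 within 10 kb, and those lower (7) numbered 4 with the median of shared regions set to 0, 11 at a fold of 1.5, 4 within 10 kb and 1 with equal weight. The smaller counts within 10 kb follow from fewer regions, and the cause of the others was not tested. Of the alternatives here and below, only the scope outside the immune-like clusters has its shares over all regions or genes stated above. Counts under the other alternatives have no such share beside them and cannot be read as a result about these genes.

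The median promoter ratio of the contractile genes (-0.39) was -0.26 with the median of shared regions set to 0, -0.47 with equal totals over promoters, -0.07 outside the immune-like clusters, -0.28 with each nucleus counted once, -0.34 with a window of 500 bp, -0.35 with starts of coding transcripts and -0.096 with equal weight, and 1 gene was 2-fold lower with a window of 2 kb. For the SRF and MRTF regulators (0.10) these settings gave 0.23, 0.023, 0.029, 0.052, 0.16, 0.12 and 0.022, and 0 genes 2-fold higher with each nucleus counted once or a window of 2 kb. For the other smooth muscle and SRF target genes (-0.034) the values were 0.093, -0.11, 0.018 and -0.013 under the first 4 settings, -0.049 at middle depth (between the 5th and 95th percentile), -0.016 with a window of 2 kb and -0.00062 with equal weight. For myosin phosphatase, kinase and oxytocin signalling (0.19) they were 0.31, 0.11, 0.082 and 0.068 under the first 4, 0.15 at middle depth and 0.045 with equal weight. In the basal-like cluster the gene-body ratio of all 9 genes (-0.21) was -0.08 with the median of shared regions set to 0, an offset taken over all nuclei and not within this cluster. Depth limits the small clusters most: in the basal-like cluster, 37 DOX and 64 EtOH counts fell on the Lmod1 promoter. With a Leiden resolution of 1 and with clustering on all shared regions, the promoter ratio in the basal-like cluster was -0.028 and -0.027, and the gene-body ratio -0.21 in both.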
